A study of Cordyceps militaris with 6 samples.

Results

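MAT1-1-1 (CCM_06523), the mating-type regulator of Cordyceps militaris, and the conserved genes that flank its locus, Sla2 (CCM_06521) and a DNA lyase (CCM_06524), are described here across a subculture series. The genes were taken by locus tag: 3 of the 10385 genes in the deposited expression table. The material was mycelium of the YCC strain at passages 1 to 6 of subculture, with 1 library for each passage. All 6 cultures were grown in the dark at 25 °C for 72 h in shaken liquid medium, and poly(A) RNA was sequenced. The purpose given for the series is to follow the transcriptome as the strain degenerates. No passage has a replicate, and the 6 libraries are labelled as 1 strain followed over time. A difference between passages and a difference between libraries therefore cannot be told apart.

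C. militaris is an ascomycete that grows on insects and is cultivated for its fruiting bodies. As in related fungi that mate with a partner, mating type is set at 1 locus, where strains carry either the MAT1-1 or the MAT1-2 version, called idiomorphs because their sequences are unrelated. MAT1-1-1 encodes an alpha-box transcription factor and belongs to the MAT1-1 version. The genes to either side of the locus are shared by both mating types. Sla2 links actin to endocytic membrane, and the DNA lyase beside the locus is a base-excision repair enzyme. Loss of fruiting on repeated subculture is the trait called degeneration in this fungus.

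MAT1-1-1 was weakly expressed and was highest in passage 1. Its level in passages 1 to 6 was 6.66, 4.01, 5.07, 2.32, 3.38 and 2.63 FPKM, a read level scaled to gene length and library size. These levels rest on 89, 76, 76, 41, 57 and 49 counts. All 5 later passages were below passage 1, and passages 4 and 6 were the lowest. Counts were then scaled to library size by TMM, a scaling to the bulk of genes. On that scale the log2 ratio to passage 1 was -0.94 in passage 2, with a 95% counting interval of -1.41 to -0.49. The ratio was -0.67 (-1.14 to -0.22) in passage 3 and -1.78 (-2.38 to -1.26) in passage 4. It was -1.16 (-1.68 to -0.68) in passage 5 and -1.56 (-2.12 to -1.07) in passage 6. No interval reached 0. MAT1-1-1 was thus at least 2-fold below passage 1 in passages 4, 5 and 6, but from deposited FPKM passage 5 was at -0.96 log2, short of 2-fold. Over the 8483 genes whose mean reached 1 FPKM, 10% were at least 2-fold lower in passage 4, 13.4% in passage 5 and 11% in passage 6.

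Sla2, the flank on one side, was the most highly expressed of the 3 genes in every library. Its level in passages 1 to 6 was 92.93, 52.58, 69.82, 63.18, 62.14 and 46.11 FPKM. Counts ran from 1958 to 2824. As with MAT1-1-1, passage 1 stood above all later passages, but here passage 6 was lowest and passage 4 lay among the others. The log2 ratio to passage 1 was -1.04 in passage 2 (counting interval -1.12 to -0.96), -0.70, -0.84 and -0.78 in passages 3 to 5, and -1.25 in passage 6 (-1.34 to -1.17). Sla2 was at least 2-fold lower in passages 2 and 6, where 11% and 11% of genes were. From deposited FPKM it was at -0.82 in passage 2, short of 2-fold, and at -1.01 in passage 6.

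The DNA lyase, on the other side, had another order. Its level in passages 1 to 6 was 5.63, 6.84, 6.71, 9.16, 6.27 and 8.46 FPKM, from 101 to 218 counts. Passages 4 and 6, where MAT1-1-1 was lowest, were the highest for the lyase. The log2 ratio to passage 1 was 0.42 in passage 4, with a counting interval of 0.07 to 0.77, and 0.34 in passage 6. In passages 2, 3 and 5 it lay between -0.04 and 0.07. From deposited FPKM the ratios in passages 2 to 6 were 0.28, 0.25, 0.69, 0.15 and 0.58, so every later passage was above passage 1. On neither scale was the lyase 2-fold apart from passage 1 in any of the 5. In either direction, 20.8%, 26%, 20.5%, 25.5% and 23% of genes were that far apart in passages 2 to 6, and 13.3% were at least 2-fold lower in passage 3.

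**Figure D1:**
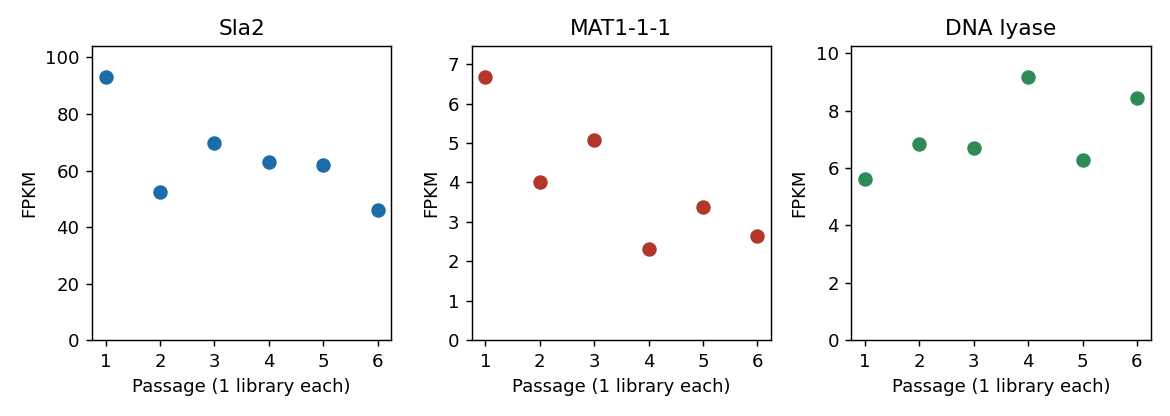
Level of each gene in FPKM (y axes from 0, a scale for each gene) by passage, 1 point for each library. MAT1-1-1 and Sla2 are highest in passage 1 at 6.66 and 92.93 FPKM, while the DNA lyase is highest in passage 4 at 9.16 FPKM.

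Within each gene, neighbours in the order of the libraries often lay within counting error of each other. For MAT1-1-1 the order was passage 1, 3, 2, 5, 6 and 4, and of the 5 steps in it only that from passage 1 to passage 3 exceeded counting error (0.68 log2, interval 0.22 to 1.14). No step did so for the lyase. For Sla2, which had many more counts, 4 of the 5 steps did, the exception being passage 5 against passage 4.

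Across all genes, 2 contrasts were tested with edgeR's quasi-likelihood test, adjusted over 8758 genes. Neither called MAT1-1-1. The trend over passage number called 0% of genes, that is 0 of 8758, with 1129 at an unadjusted p under 0.05; DESeq2 called 56. The slope of MAT1-1-1 was -0.28 log2 per passage (SE 0.091, adjusted p = 0.380), that of Sla2 -0.17 (SE 0.069, adjusted p = 0.381) and that of the lyase 0.06 (SE 0.059, adjusted p = 0.654). Without passage 1 the slope of MAT1-1-1 was -0.18 and that of Sla2 -0.05, so most of the slope of Sla2 came from 1 library. The contrast of passage 1 with passages 2 to 6 was chosen knowing that the passage 1 library stands apart, and called 24% of genes: 9.58% higher and 14.4% lower in the later passages. Sla2 fell in it by 0.91 log2 (SE 0.206, adjusted p = 0.0223). MAT1-1-1 had a larger difference of -1.18 and a larger error (SE 0.400), and did not pass at adjusted p = 0.0708. The lyase had a difference of 0.16 (SE 0.259, adjusted p = 0.668). The passage 1 library also differs from the others by gene length, and Sla2, at 3.12 kb, is longer than the median gene of 1.39 kb. With a length trend removed from each library, Sla2 was at -0.47 (adjusted p = 0.140) and no longer passed, while MAT1-1-1, at 1.37 kb, stayed at -1.19 (adjusted p = 0.0915). With limma on log2(FPKM + 1), Sla2 was at -0.67 (adjusted p = 0.0662). Since passage 1 is 1 library, the test takes its spread from the other 5.

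The authors' deposited table of passage 4 against passage 1, a comparison of 1 library with 1 library, lists MAT1-1-1 at a log2 ratio of -1.52 (FDR 3.07e-08). The authors' deposited table of passage 6 lists it at -1.34 (FDR 3.02e-07) and Sla2 at -1.01. Being listed was common: the passage 4 and passage 6 tables hold 2006 and 2188 genes, against 10385 genes in the expression table. The DNA lyase is in none of the authors' 5 deposited tables.

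Of the 9 genes of the stretch that were tested, 1 was called in the contrast of passage 1 with the rest, Sla2, against 24% of all genes. The gene called changed with the length trend removed: Sla2 no longer passed, and the ribosomal protein gene CCM_06519 fell by 0.59 log2 (adjusted p = 0.0329). With that trend removed, 15.9% of all genes were called. CCM_06522, a hypothetical gene between Sla2 and MAT1-1-1, had 0 counts in every library, which allows up to 0.308 CPM (counts scaled to a common library total) in passage 1, the shallowest library. The authors' variant table still lists a few reads in its exons, such as 2 at 414373 in each of passages 1, 2 and 4. MAT1-1-2 (CCM_09679), the other MAT1-1 gene between MAT1-1-1 and the lyase, had 2 counts in passage 1, 2 in passage 3 and 0 in the other 4, so no change in it could be seen at this depth. On the Sla2 side the ribosomal protein genes CCM_06518 and CCM_06519 had 772.61 and 510.79 FPKM in passage 1. Their differences between the later passages and passage 1 were -0.07 and -0.11 log2. The ankyrin repeat gene CCM_06520, next to Sla2, had 4.71 FPKM in passage 1 and a difference of -0.27. On the lyase side, CCM_06525 encodes subunit VIa of cytochrome c oxidase, the last complex of the respiratory chain. It had 320.11 FPKM in passage 1 and 437.15 to 531.81 in the later ones, a difference of 0.38 that did not pass (adjusted p = 0.125). CCM_06526 and CCM_06527 had differences of 0.14 and 0.45 and did not pass either.

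The same libraries carry a record of alleles, since the authors' variant table gives reference and alternative reads at each site. A site is called mixed here where at least 1 library was genotyped as holding both alleles. At each mixed site with at least 10 reads in passage 1, the allele with at least 90% of the passage 1 reads is called the passage 1 allele, and its counterpart the other allele. Sla2 had 12 sites in its body, 7 of them mixed, and the lyase had 21, with 9 mixed. At 5 sites of each gene the passage 1 allele could be assigned. Over the whole genome, 88.5% of mixed sites with at least 10 reads in passage 1 met this rule, and the rest were left out. A low share of the other allele in passage 1 is therefore set by the rule at every site used below.

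At Sla2 the other allele, held low in passage 1 by that rule, was present in all later passages. It had 3 of 797 reads in passage 1 (0.376%, Wilson 95% interval 0.128% to 1.10%). It had 19.1% of 806 reads in passage 2 (16.5% to 22.0%) and 6.44% of 963 in passage 3 (5.05% to 8.17%). It then had 51.3% of 854 in passage 4 (47.9% to 54.6%), 28.5% of 841 in passage 5 (25.6% to 31.7%) and 63.5% of 608 in passage 6 (59.6% to 67.2%). The intervals of the 6 libraries did not overlap, and the order was not that of passage number: passage 3 was below passage 2, and passage 5 below passage 4. Reads at neighbouring sites can come from the same molecules and are amplified, so these intervals cover counting error only.

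The lyase gave the same order on the other side of MAT1-1-1. The other allele had 0 of 135 reads in passage 1 (upper limit 2.77%), 36.4% of 195 in passage 2 (30.0% to 43.4%) and 3.95% of 152 in passage 3 (1.82% to 8.34%). It had 67.6% of 225 in passage 4 (61.2% to 73.3%), 44.6% of 175 in passage 5 (37.4% to 52.0%) and 72.1% of 215 in passage 6 (65.7% to 77.7%). In passages 2, 4 and 5 these intervals lay above those of Sla2, while in passages 3 and 6 they overlapped them. Next to the lyase, the well covered site of CCM_06525 gave 0.702% of 712 reads in passage 1, then 32.9%, 9.08%, 61.7%, 39.9% and 73.9% of 1134 to 1232 reads.

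**Figure D2:**
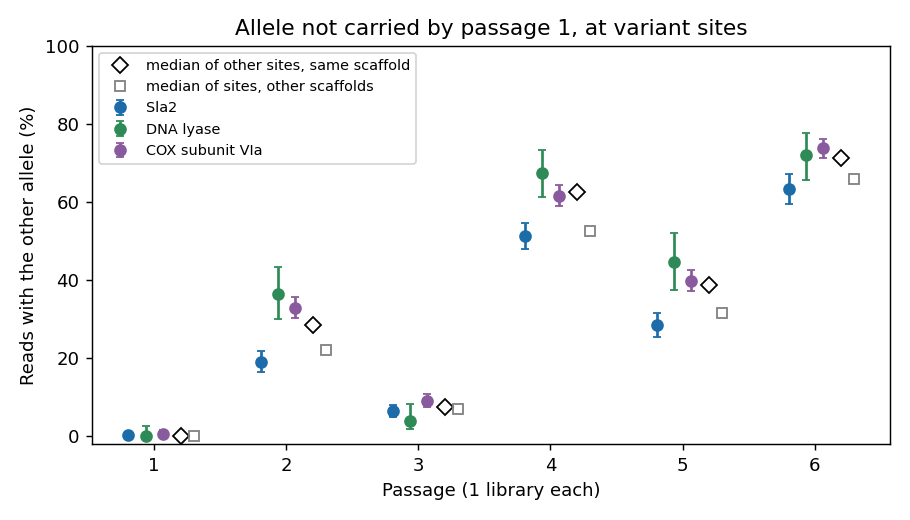
Share of reads with the other allele, low in passage 1 by rule (percent, y axis), by passage, pooled over the sites of Sla2, the DNA lyase and CCM_06525 (COX subunit VIa). Bars are Wilson 95% intervals, and open symbols are medians over sites elsewhere. In passage 6 Sla2 is at 63.5%, the DNA lyase at 72.1% and the median of other sites of the scaffold at 71.4%; in passage 3 all lie under 10%.

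This pattern was not particular to the locus. Of 134783 variant sites in the table, 7829 were mixed, and 3911 of those had an assignable passage 1 allele, 1108 on the scaffold of the locus (NW_006271973.1). The median share of the other allele over sites of that scaffold, without the 3 genes, was 0%, 28.6%, 7.56%, 62.5%, 38.7% and 71.4% in passages 1 to 6. On the other scaffolds it was 0%, 22.2%, 6.90%, 52.6%, 31.6% and 65.9%. Both rows of medians put the passages in the same order as Sla2 and the lyase. More hyphae or nuclei with the other allele and more RNA from each of them cannot be told apart in such samples. Whether the other allele arose within the culture was not tested. Low shares can be understated: in libraries genotyped as reference at mixed sites with at least 20 reads, 612 of 5660 read pairs listed any alternative read.

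Single sites of the flanks differed among themselves. In Sla2, the site at NW_006271973.1:409391 changes the protein (E363K, numbered as in the authors' table, with the reference residue first). Its other allele, here the reference base, went from 0.442% in passage 1 to 76.2% in passage 6. Further along, the synonymous sites at 410506 and 410521 reached only 42.4% and 44.0% in passage 6. In passage 2 they had 8.72% and 8.47%, against 25.6% at 409391. Downstream of the gene, at 411615, the other allele was higher than in the gene body, with 69.3%, 23.7%, 81.8%, 66.7% and 82.7% in passages 2 to 6. The next site downstream, at 411918, was instead lower than the pooled gene body, with 0%, 0%, 10.2%, 0% and 25.0%, of which the value of passage 3 rests on 33 reads. The share thus differed between sites of 1 library, and the pooled value depends on which sites it holds. In the lyase, the changes D395E at 422237, M209I at 422795 and V82I at 423178 had the other allele at 79.2%, 75.0% and 64.7% in passage 6. That allele is the reference base at 422795 and the alternative base at 422237 and 423178.

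MAT1-1-1 itself showed no other allele at its variant sites. It had 4 sites, and each was alternative to the reference in every library in which it was genotyped: the protein change E255D at 417379 and the synonymous sites at 417562, 417580 and 417610. Over the 4 sites there were 37, 20, 34, 15, 23 and 13 reads in passages 1 to 6, none of them with the reference base. At 417379, the deepest, 66 reads over passages 2 to 6 held 0 reference bases, with an upper Wilson bound of 5.50%. For 1 library the bounds are wider, at 22.8%, 17.6%, 29.9%, 20.4% and 25.9% in passages 2 to 6. In passages 4, 5 and 6 those bounds lay below the lower bounds of the other allele at both flanks, in passage 2 below that of the lyase only, and in passage 3 above both.

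The sites of MAT1-1-1 cannot show a MAT1-2 idiomorph, whose sequence is unrelated and whose reads were not looked for. The contrast with the flanks holds for an allele with the reference base at these sites. Alleles with the same base there could not be told apart, and such sites were common: 5 of 12 sites in Sla2 and 12 of 21 in the lyase were also alternative in every call, as were 83.1% of sites in gene bodies of the scaffold. Of 652 genes on the scaffold with at least as many sites as MAT1-1-1, 435 (66.7%) had no mixed site. A lack of mixed sites was thus common on the scaffold, but not in the stretch around MAT1-1-1. All 7 of the other genes there with at least 4 sites had a mixed site, from 1 of 5 in CCM_06519 and 2 of 25 in CCM_06526 to 43 of 60 in CCM_06520. The nearest mixed sites with at least 10 reads in a library genotyped with both alleles were at 411918 on the Sla2 side, 5461 bp from the first site of MAT1-1-1, and at 421790 on the lyase side, 4180 bp from its last. Of the 19 sites in the 9872 bp between them, 2 were mixed, with at most 8 reads in a library.

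**Figure D3:**
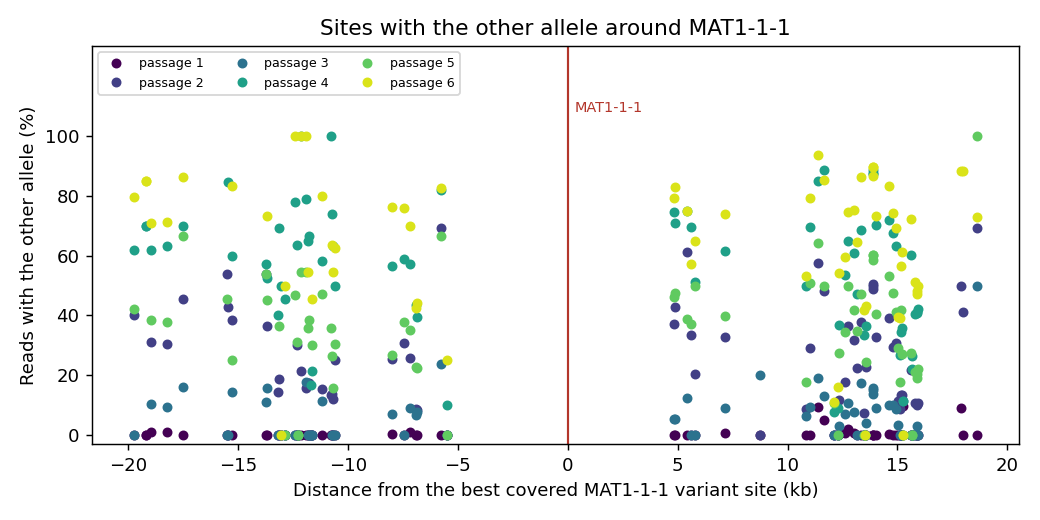
Share of reads with the other allele (percent, y axis) at each assignable site with at least 10 reads, by distance in kb from the best covered MAT1-1-1 site (x axis), coloured by passage. Sites to either side reach over 70% in passage 6, and no assignable site lies within 4 kb of MAT1-1-1.

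The level of MAT1-1-1 can be set beside the allele shares of its flanks. Taking its TMM-scaled level in passage 1 as 100%, MAT1-1-1 was at 51.9% in passage 2 (counting interval 37.7% to 71.3%), 62.5% in passage 3 (45.4% to 85.9%), 28.5% in passage 4 (19.2% to 41.8%), 44.2% in passage 5 (31.1% to 62.3%) and 33.3% in passage 6 (23.0% to 47.7%). The passage 1 allele of the lyase had 63.6%, 96.1%, 32.4%, 55.4% and 27.9% of its reads in those passages. Both series put passage 3 first, then 2 and 5, with 4 and 6 last; passages 4 and 6 change places between them, within counting error for MAT1-1-1. The lyase share fell inside the interval of MAT1-1-1 in passages 2, 4, 5 and 6 and above it in passage 3. The passage 1 allele of Sla2 had 80.9%, 93.6%, 48.7%, 71.5% and 36.5%, and only the value of passage 6 lay inside. These are 5 libraries of 1 subculture series set against the same passage 1 library, so no test of the relation was made. Whether the allele change and the level of MAT1-1-1 are linked was not tested.

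**Figure D4:**
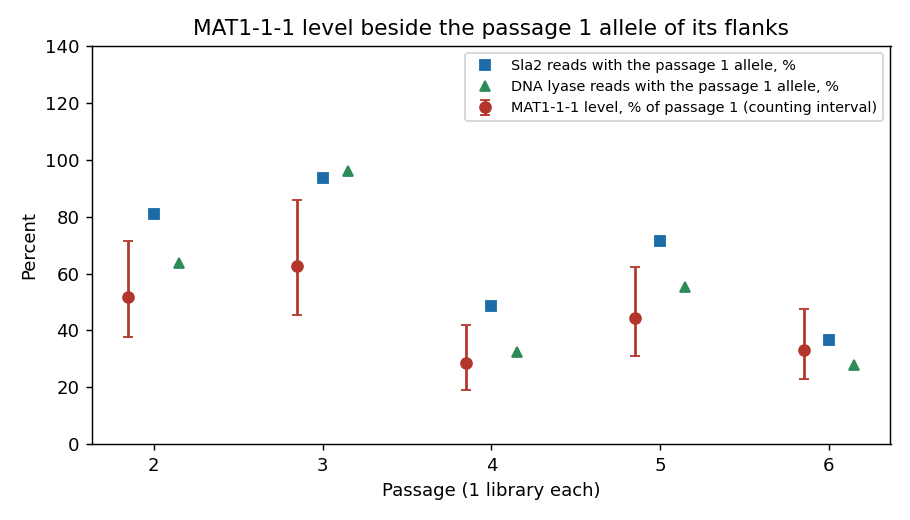
MAT1-1-1 level as percent of passage 1 (circles, bars are 95% counting intervals) beside the percent of reads with the passage 1 allele in Sla2 (squares) and the DNA lyase (triangles), by passage. MAT1-1-1 is highest in passage 3 at 62.5% and lowest in passage 4 at 28.5%; the lyase allele is at 96.1% and 32.4% there.

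Splitting the TMM-scaled level of each flank by its pooled allele shares showed how its total was made up. For the lyase, reads of the passage 1 allele amounted to 11.9, 7.95, 11.2, 5.18, 6.43 and 4.23 CPM in passages 1 to 6. Those of the other allele were at 0, 4.55, 0.461, 10.8, 5.17 and 10.9 CPM. By construction their sum is the lyase total, which lay between 11.6 and 16.0 CPM. Its makeup differed between passages, and in passage 3 it was again mostly the passage 1 allele. For Sla2 the passage 1 allele had 333 CPM in passage 1, then 132, 193, 90.9, 139 and 51.1, and the other allele had 1.26, 31.1, 13.3, 95.7, 55.5 and 88.9. In Sla2 the other allele never made up what the passage 1 allele lacked. Among the later passages it was rarest in passage 3, where the total of 206 CPM was still below the 334 CPM of passage 1.

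Splice junction reads gave a separate view of the 3 genes from the same libraries. The 2 annotated junctions of MAT1-1-1 together had 32, 44, 36, 14, 21 and 30 reads in passages 1 to 6. As CPM, this was 3.29, 3.19, 3.29, 1.08, 1.71 and 2.20. Passages 4 and 5 were lowest, with log2 ratios to passage 1 of -1.60 (counting interval -2.62 to -0.65) and -0.94 (-1.81 to -0.10). With this scaling to library totals, passages 2 and 3 were level with passage 1. Per total junction reads, passages 2 and 3 were at -0.29 and -0.25, and passage 6 at -0.80 (-1.56 to -0.03). Neither scaling uses TMM, so these ratios are not on the scale of the ratios from counts. Scaled to library totals, the junction interval of passage 2 (-0.73 to 0.66) leaves out its ratio from counts. That of passage 3 (-0.72 to 0.74) includes its own. Per total junction reads, the intervals of passage 2 (-0.98 to 0.42) and passage 3 (-0.98 to 0.48) both include the ratio from counts. Passage 6, scaled to library totals, was at -0.58 (-1.34 to 0.19). That interval includes no change and leaves out the ratio from counts of -1.565. Per total junction reads, its lower end of -1.564 also lay just above that ratio. In passages 4 and 5 the intervals of both scalings include the ratio from counts. The annotated junction of the lyase, between 423225 and 423273, had 38, 54, 40, 59, 35 and 63 reads. One more lyase junction, between 421541 and 421663 near its 3′ end and given the class ES, had 11, 14, 24, 34, 18 and 34.

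Sla2 had 3 annotated junctions and 1 across its 3′ end that moved apart from them. The annotated ones together had 1278 reads in passage 1 and then 845, 747, 779, 801 and 590, or 131 CPM in passage 1 and 43.4 in passage 6. The junction between 411373 and 411586, given the class ALS, had 45, 79, 86, 131, 105 and 161 reads in passages 1 to 6. As CPM, it went from 4.62 in passage 1 to 11.8 in passage 6. It skips the annotated stop codon, where the authors' table places a 1-base deletion at 411475. Of all junction reads of Sla2 it took 3.40% in passage 1 (2.55% to 4.52%), 8.55%, 10.3%, 14.4% and 11.6% in passages 2 to 5, and 21.4% in passage 6 (18.7% to 24.5%). The share was lowest in passage 1 and highest in passage 6. Passage 3 goes against the order of the allele shares: its junction share was above that of passage 2, though their intervals overlapped (6.91% to 10.5% and 8.44% to 12.6%).

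**Figure D5:**
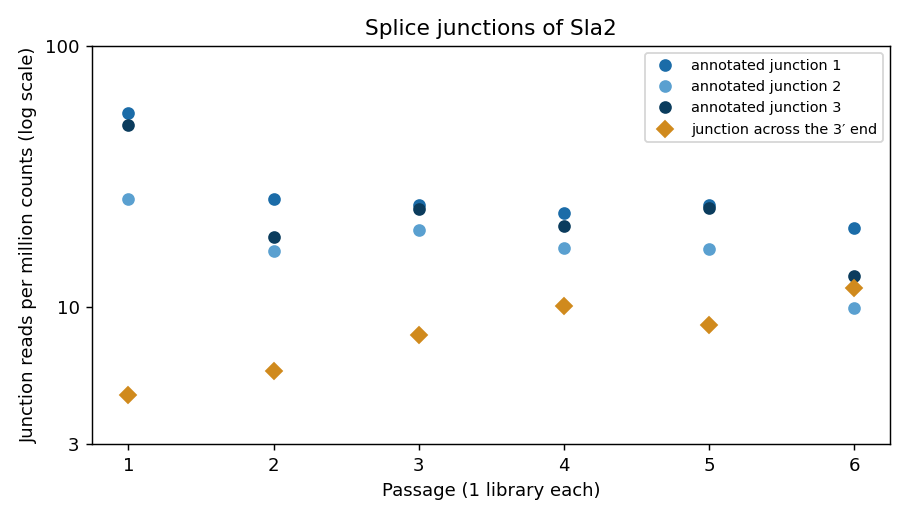
Junction reads of Sla2 as CPM (log axis) by passage, for its 3 annotated junctions (circles) and the junction across its 3′ end (diamonds). The annotated junctions are highest in passage 1, while the 3′ end junction goes from 4.62 in passage 1 to 11.8 in passage 6.

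Other genes with products named for mating or related processes were read from lists made by product text. The lists match words, and the first also holds kinases, G-protein subunits and HMG box genes whose product text does not name mating. Of 38 genes of mating and pheromone response, 36 were tested, and in passages 2 to 6 against passage 1, 2 rose and 5 fell; their median difference was -0.13 log2, against 0.05 over all genes. The rises were FIG1 (CCM_01276), a membrane protein of mating cell fusion in yeast, and an HMG box gene (CCM_06680). FIG1 went from 13.43 FPKM to between 43.35 and 62.03, a difference of 1.61 (SE 0.246, adjusted p = 0.00681). Those that fell included the STE20 kinase CCM_09268, which no longer passed with the length trend removed (-0.35), and the G-protein alpha subunit CCM_09683. Also among them were a CaaX prenyl protease (CCM_07901), an enzyme class that trims lipid-modified proteins such as the yeast a-factor pheromone, by 0.98 (adjusted p = 0.00659), and the pheromone-processing protease KexB (CCM_04990), by 1.13 (adjusted p = 0.00822). The pheromone-regulated membrane protein 6 (CCM_05091) fell by 0.75, but with the length trend removed it was at -0.44 (adjusted p = 0.120). With that trend removed 4 rose and 4 fell in the list, where 5.73% of all genes rose and 10.2% fell.

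Of 12 genes of sexual development 0 rose and 4 fell, with a median of -0.55 log2. The transcription factor steA (CCM_01444), the fungal counterpart of the yeast mating factor STE12, went from 327.83 FPKM in passage 1 to between 108.92 and 147.73, and fell by 1.56 log2 (SE 0.176, adjusted p = 0.00358). The light-dependent regulator VeA (CCM_04531) went from 86.10 FPKM to between 32.07 and 41.11 and fell by 1.55 (SE 0.164). The kinase PakA (CCM_05107) fell by 1.26 and an NADPH oxidase (CCM_01357) by 0.71. With the length trend removed 3 of the 4 still passed and the oxidase did not.

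Of 14 tested genes of karyogamy and meiosis 0 rose and 3 fell, but the median was 0.23. The 3 were CCM_08160, the karyogamy gene KAR9 (CCM_06275), which in yeast orients the spindle, and CCM_02577. With the length trend removed 1 rose, TCONS_00002518, and 0 fell in this list. The negative regulator of sexual conjugation and meiosis (CCM_00683) had the lowest p of the list in the trend, with a slope of -0.20 log2 per passage (adjusted p = 0.380). It had 599.23 FPKM in passage 1 and 349.19 in passage 6, and its difference in the contrast was -0.64 (adjusted p = 0.192). The meiosis protein MEI2 (CCM_05815), whose fission yeast counterpart is needed to enter meiosis, had 2.15 FPKM in passage 1 and 4.13 to 8.55 later. Its difference of 1.39 did not pass (adjusted p = 0.0705), nor did that of 0.51 of the meiotic recombination protein rec14 (CCM_00217, adjusted p = 0.0957). Of 20 genes of heterokaryon incompatibility, which in filamentous fungi act on fusion between unlike individuals, 0 rose and 4 fell, and the median was -0.15. The HET domain gene CCM_03271 went from 195.11 FPKM to between 27.66 and 74.47 and fell by 2.13 (SE 0.405, adjusted p = 0.0131). CCM_07994 fell by 1.58, CCM_03138 by 1.05 and CCM_00436 by 0.65, and with the length trend removed 2 of the 4 passed. Over all genes 14.4% fell and 9.58% rose in this contrast, the background for the counts of the 4 lists before the length trend is removed, and passage 1 as a single library stands behind all of them.

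The genes whose profile over the 6 libraries was most like that of MAT1-1-1 were ranked by Pearson's r of log2 TMM-scaled CPM among 8757 other genes, as a description without a test. The closest was a DEAD-like helicase (CCM_03110, r = 0.988), followed by CCM_03707 (0.983), a ribokinase (CCM_05337, 0.979), an HAD-like gene (CCM_08710, 0.965) and S-formylglutathione hydrolase (CCM_01542, 0.964). CCM_03707 had 7.79 FPKM in passage 1 and 3.32 in passage 4. The most opposed were the zinc finger gene CCM_09123 (-0.991), the Sas10/Utp3 gene CCM_07293 (-0.984), a cytochrome of family 51 (CCM_08795, -0.979), the zinc finger gene CCM_03650 (-0.977) and TCONS_00003408 (-0.977). With 6 libraries of 1 subculture series, high values of r are easily reached among so many genes. Sla2 had an r of 0.808, rank 520, and the lyase one of -0.775, rank 8115.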

How the data were processed

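Poly(A) RNA of 6 mycelium libraries, 1 for each passage, was analysed from the authors' tables. The 3 genes, the gene lists and the contrasts were chosen with earlier results of these data known. Tools named in the submitters' processing notes are edgeR, Cufflinks, TopHat2, Bowtie and FastQC, with versions, counting settings and strand use not given in the sources used here, so overlapping transcripts of opposite strands cannot be separated. The deposited expression table holds estimated counts per gene, not normalised by the authors, with totals of 9740171 to 13813999 a library, and FPKM values scaled by the authors to library size and gene length, per the file headers. The authors' variant table gives counts of reference and alternative reads, genotype codes and a quality score of at least 30.02 for each site, per the file headers, with the caller not given in the sources used here. Read pairs in libraries without a genotype were left out. The deposited editing table gives a fraction of reads for each event. The authors' 5 comparison tables hold log2 ratios with a p-value and FDR from 1 library against 1 library. The deposited junction tables hold counts of reads per junction; the 5 copies of passage 1 were identical. Per-sample values in another 56 columns were left aside. Sequence names are RefSeq scaffolds of strain CM01, positions are as the authors give them, and no build is stated. All 9651 locus tags were found in a RefSeq gene table, used only for names and gene order.

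Counts were rounded and tested with edgeR 4.0.16 (quasi-likelihood, TMM, expression filter, two-sided, Benjamini-Hochberg at 0.05) in R 4.3.3; limma 3.58.1 and DESeq2 1.42.0 were alternatives. The procedures were tested on simulated data. Ratios to passage 1 used a prior count of 1. Shares needed at least 10 reads for a site in a library and carry Wilson 95% intervals; for levels, a count of 0 allows up to 3 counts. Gene lengths were derived from counts and FPKM. Named genes were the 3 genes, those up to 5 places away, the 4 in each list with the lowest p in either test, and the 5 most and 5 least correlated with MAT1-1-1; CCM_06680, CCM_09683, CCM_09268, TCONS_00002518, MEI2 and rec14 were named after their values were seen. Lists matched by product text were pruned of unrelated products by text alone.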

Additional observations from a re-analysis of the deposited data

How the results depend on the processing

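Directions of Sla2, MAT1-1-1 and the lyase in both tests were the same under every setting run. These were other size factors, no filter, DESeq2, limma, length trend removed and libraries left out 1 at a time. In the contrast of passage 1 with the rest, only passages 2 to 6 were left out. Sla2 in passage 1 against the rest stopped passing with limma (-0.67) and with the length trend removed (-0.47). DESeq2 called 56 genes in the trend, 24 higher and 32 lower. With the length trend removed, passage 1 against the rest called 1391 genes, 502 of them higher; limma called 1821 higher and 765 lower, and leaving out 1 library gave 1406 to 2543 calls, 474 to 1068 higher and 932 to 1475 lower. Without passage 3, 4 or 5 the higher calls were 493, 543 and 474. Deposited FPKM, whose median ratio to passage 1 lay 0.21 to 0.30 log2 above 0, gave 622 genes at least 2-fold lower in passage 2, 1693 higher and 731 lower in passage 3, 1468 and 479 in passage 4, and 1553 and 557 in passage 6; the share of higher among these genes went from 47.1% to 66.6% in passage 2 and from 51.1% to 75.4% in passage 4. On that scale Sla2 was at -0.82, -0.41, -0.56, -0.58 and -1.01, and MAT1-1-1 at -0.72, -0.39, -1.48, -0.96 and -1.31, in passages 2 to 6. For the Sla2 allele share, the median of sites gave 0%, 25.6%, 56.6% and 69.9% in passages 1, 2, 4 and 6, and a minimum of 1 read gave 15.9% and 24.6% in passages 2 and 5. Per total junction reads, Sla2 was at -1.27, -1.09, -1.21, -1.13 and -1.52 in passages 2 to 6. The cause of these differences was not tested. No paired analysis was possible because each passage has 1 library and the groups share fewer than 2 replicate numbers. Depth limits MAT1-1-1 most, with 41 to 89 counts a library.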

Other observations

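The authors' deposited table of RNA editing events listed 19 events in Sla2 at 6 sites, 30 in the DNA lyase at 9 sites and 0 in MAT1-1-1. All 49 lay at sites that the variant table lists as mixed. The event frequency equalled the share of alternative reads there to within 4.97e-05 as a fraction. No event was listed in passage 1 for either gene, and passage 4 had 6 in Sla2 and 8 in the lyase. For these genes the editing table and the variant table gave the same values.

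Upstream of Sla2, at NW_006271973.1:408033, a 3-base insertion had 20 of 23 reads in passage 1, 13 of 91 in passage 2, 10 of 22 in passage 3 and 0 of 37, 36 and 36 in passages 4 to 6. In passages 4 to 6 it was listed at 0, while the gene body still showed the passage 1 allele. At 408343 inside Sla2, passage 4 alone was genotyped with both alleles, with 85 of 150 reads alternative, while passages 2 and 5 listed 0 of 172 and 0 of 140, unlike the sites next to it in the gene.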
